A study of Homo sapiens
Mus musculus with 5 samples.

Results

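Complement genes were followed in the cancer cells and in the host tissue of 5 xenograft tumors. Genes were taken by symbol alone, with a pattern that covers the components C1 to C9, factors B, D and I, properdin, the anaphylatoxin receptors, the proteases MASP1 and MASP2, the membrane regulators CD46, CD55 and CD59, and SERPING1. The pattern matched 49 of 50152 genes in all, 19 of 25524 human and 30 of 24628 mouse genes. Human genes stand for the cancer cells and mouse genes for the host. The cancer cells were H2030-BrM3, a human lung adenocarcinoma line whose BrM suffix marks derivation from a brain metastasis, so that both groups carry cells of 1 line. The hosts of all tumors were athymic nu/nu mice: without a thymus they have few mature T cells, but they keep macrophages, microglia and B cells. Libraries came from 3 brain tumors and from 2 lung tumors that followed injection of the cells into the trachea. The labels used here do not state how the brain tumors were seeded, the age of the mice or any further treatment. The labels do not say whether each tumor came from its own animal; the p-values then reflect the spread among these libraries alone, which may be technical.

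Complement is a cascade of serum proteases and binding proteins that marks cells and debris for uptake or lysis. The classical route starts when C1q, made of A, B and C chains, binds its target and activates the proteases C1r and C1s, which cleave C4 and C2; the lectin route reaches the same step through the MASP proteases, and the alternative route amplifies C3 cleavage through factors B and D and properdin. All routes meet at C3, whose fragments coat targets, and go on to C5 to C9, which form a membrane pore. The fragments C3a and C5a act through C3AR1 and C5AR1. SERPING1 (C1 inhibitor), factor I, CD46, CD55 and CD59 hold the cascade in check on the body's own cells. Liver is the main source of the serum components, while in brain C1q comes chiefly from microglia and C4 largely from astrocytes and other glia.

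Levels are RPKM, read counts scaled to gene length and to the reads of the same species, as the authors deposited them. The library depth was recovered from these values and ran from 2445904 to 8419288 human reads. Mouse reads numbered 2710983 to 8636094 in the brain tumors, 231156 in lung tumor 1 and 5295159 in lung tumor 2. At the depth of lung tumor 1, 3 reads, the limit that a count of 0 allows, stood for 2.95 RPKM of C3ar1 and for 23.3 RPKM of C1qb. These are the ends of the range over mouse members above 0 in at least 2 libraries, counting error only. The labelled host tissue was checked by its markers. The summed level of 8 astrocyte markers was 13477 to 15156 RPKM in the brain tumors, against 249 and 164 RPKM in lung tumors 1 and 2. That of 8 lung epithelium markers was 66014 RPKM in lung tumor 2 but 990 RPKM in lung tumor 1. The 990 RPKM rested on 145 reads, against 106, 140 and 119 reads in the 3 brain tumors, and Sftpd was at 0. These read numbers come from unequal depths: per mouse read the sum was 19.2 to 66.4 RPKM in the brain tumors, below the 990 RPKM of lung tumor 1, which was itself far below lung tumor 2. Markers of alveolar macrophages, the resident macrophages of lung, summed to 3588 RPKM in lung tumor 1, 1059 RPKM in lung tumor 2 and 30.1 to 64.0 RPKM in the brain tumors. Of the 8, 3 were at 0 in lung tumor 1. Marco gave 3210 RPKM of the sum in lung tumor 1 and 29.2 RPKM of that in lung tumor 2. Fabp4 was also higher in lung tumor 1, at 225 against 4.98 RPKM. Chil3 (140 against 506 RPKM), Car4 (6.98 against 386 RPKM), Atp6v0d2, Siglecf, Krt79 and Ear2 were higher in lung tumor 2. The main results on the host are given with and without lung tumor 1.

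In the host, more complement genes were lower than higher in the brain tumors. Of 30 mouse members 24 passed the filter of at least 1 RPKM in at least 2 libraries, and of these 9 fell and 1 rose in brain relative to lung tumors at an adjusted p under 0.05 by limma on log2(RPKM + 1). Among all 15431 mouse genes tested, 8.12% fell and 14.3% rose, 22.4% in all. At an unadjusted p under 0.05 there were 13 members, against 38.5% of all tested genes. In 12 members every brain tumor lay below both lung tumors, and in 1 every brain tumor lay above them, where these shares were 26.2% and 30.0% of all tested genes, 56.1% together. The median log2 fold change, brain minus lung, was -1.36 over the tested members and 0.08 over all tested genes. Cfd and C6 passed the filter through the lung tumors alone and Masp1 through the brain tumors alone, which fixed their direction. The 1 rise and 1 of the 9 falls thus had their direction set by the filter, and C6 was not called. C1ra, another of the 9, reached 1 RPKM in brain tumor 1 alone of the brain tumors. C1ra thus passed only with its lung values. Without brain tumor 1, 2 or 3 the called members numbered 6, 5 and 6, without lung tumor 1 there were 10 and without lung tumor 2 there were 16. By role, 2 of 5 classical initiators, C3 itself, 1 of 3 C4 and C2 genes, both tested alternative pathway factors, 1 of 2 tested anaphylatoxin receptors, 1 of 3 soluble and 1 of 4 membrane regulators fell. Of the 2 lectin pathway proteases 1 rose and 0 fell. In these bulk samples fewer cells of a type and less RNA per cell cannot be told apart.

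**Figure D1:**
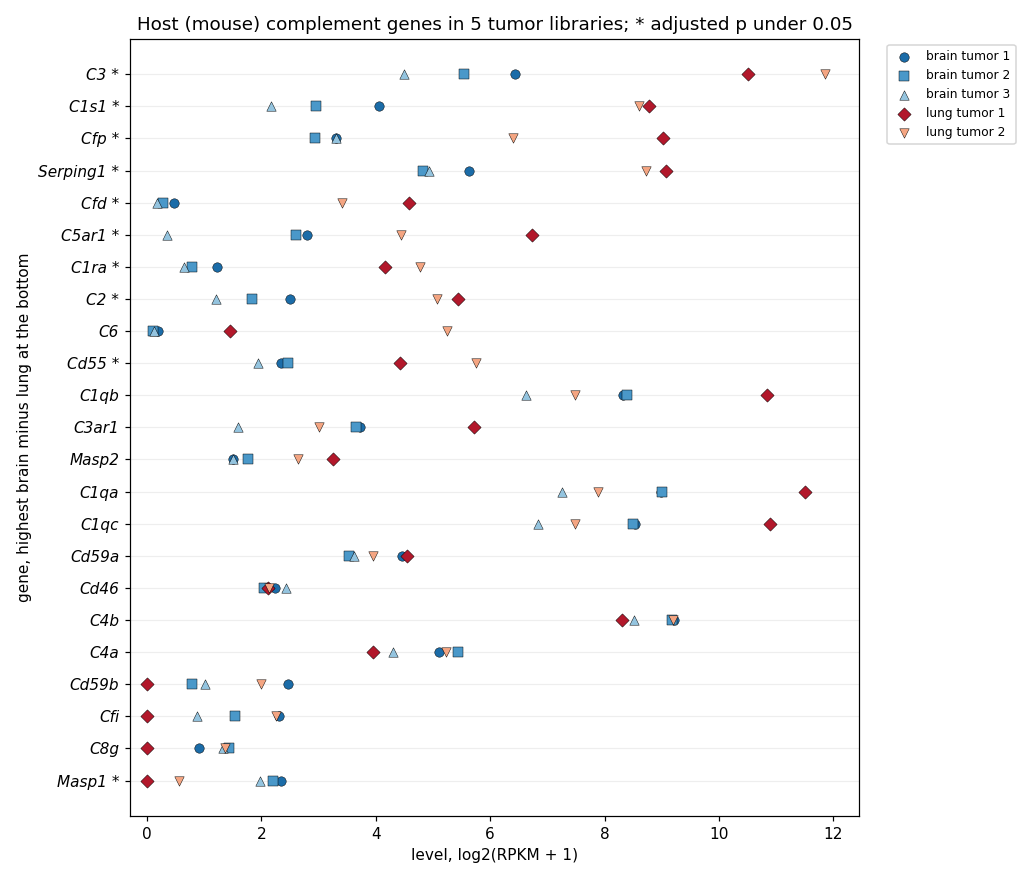
Each row is 1 of 23 of the 24 tested mouse complement genes and each point 1 library, with log2(RPKM + 1) on the horizontal axis; genes are ordered by brain minus lung, and stars mark the 10 genes with an adjusted p under 0.05. From C3 to Cd55 the blue brain points lie left of both red lung points, while for the C1q chains brain tumors 1 and 2 lie between the lung tumors.

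C3, the component on which all routes converge, had the largest log2 fold change of the tested members with all libraries, close to that of C1s1. With voom C6 (-7.44) and C1s1 (-6.02) exceeded C3 (-5.82), and without lung tumor 2 Cfp (-5.84) and C1s1 (-5.71) exceeded it. Its level was 86.0, 45.8 and 21.4 RPKM in brain tumors 1, 2 and 3, and 1449 and 3718 RPKM in lung tumors 1 and 2. Every brain tumor was far below both lung tumors, and the lung mean was 50.6 times the brain mean. The log2 fold change was -5.69 (SE 0.69, limma adjusted p = 0.00402), -6.37 without lung tumor 1 and -5.01 without lung tumor 2. These levels came from 145, 140 and 115 reads in brain tumors 1, 2 and 3, 209 reads in lung tumor 1 and 12225 reads in lung tumor 2. The brain tumors thus held 0.941% to 1.19% of the C3 reads of lung tumor 2, while the median over the 8 lung epithelium markers was 0.0447% to 0.0560%. These are shares of raw reads at unequal depths, with 2710983 mouse reads in brain tumor 1 and 8636094 in brain tumor 3. Scaled to depth, C3 ran from 86.0 RPKM in brain tumor 1 to 21.4 RPKM in brain tumor 3.

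The proteases that C1q activates and the inhibitor of these proteases fell together in the brain tumors. C1s1, the protease that cleaves C4 and C2, was at 15.6, 6.76 and 3.50 RPKM in the brain tumors, against 436 and 388 RPKM in lung tumors 1 and 2. C1ra, which activates C1s, was at 1.33, 0.735 and 0.570 RPKM against 16.97 and 26.3 RPKM. Both lay below both lung tumors in every brain tumor, with log2 fold changes of -5.63 for C1s1 (SE 0.57, limma adjusted p = 0.00257) and -3.58 for C1ra (SE 0.44, limma adjusted p = 0.00416). Serping1, the C1 inhibitor that removes both proteases from the complex, was at 48.7, 27.4 and 29.4 RPKM in the brain tumors, against 539 and 423 RPKM in lung tumors 1 and 2. Its log2 fold change was -3.77 (SE 0.36, limma adjusted p = 0.00230). The lung mean was 47.9 times the brain mean for C1s1, 24.6 times for C1ra and 13.7 times for Serping1. Within a library, the level of Serping1 was 2.88, 3.65 and 7.23 times that of C1ra and C1s1 summed in the brain tumors, and 1.19 and 1.02 times in the lung tumors. The ratio was higher in each brain tumor than in either lung tumor, a description of deposited levels with no test. C1s1 and C1ra have near-identical neighbours, C1s2 and C1rb, so that the split of reads between the copies is uncertain. C1ra passed the filter only with its lung values. Without lung tumor 1 the log2 fold changes were -5.55 for C1s1, -3.88 for C1ra and -3.60 for Serping1.

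Of the targets of C1s, C2 was called and C4 was not, and the difference between them was not tested. C2, which C1s cleaves, fell in the brain tumors, with 4.67, 2.58 and 1.31 RPKM there and 42.5 and 32.5 RPKM in the lung tumors (log2 fold change -3.40, SE 0.50, limma adjusted p = 0.00782). Its call was lost without brain tumor 2 (limma adjusted p = 0.0518), and its value in lung tumor 1 rested on 7 reads. C4b, the main gene of the other target, was at 593, 576 and 364 RPKM in the brain tumors, against 315 and 583 RPKM in lung tumors 1 and 2, so that the groups overlapped (log2 fold change 0.22, SE 0.43, limma adjusted p = 0.739). C4a, a near-identical copy whose reads are uncertain, was at 33.3, 42.4 and 18.7 RPKM against 14.4 and 36.7 RPKM. The 14.4 RPKM in lung tumor 1 rested on 3 reads. The ratio of C3 to C4b within a library was 0.145, 0.0796 and 0.0589 in the brain tumors against 4.60 and 6.38 in lung tumors 1 and 2. The direction of C4b and C4a turned without lung tumor 1, to -0.22 and -0.29.

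In the alternative route Cfp fell. The direction of Cfd, lower, and of Masp1 in the lectin route, higher, was fixed by the filter on low values, and both are given as values. Properdin, the stabiliser of the alternative convertase encoded by Cfp and made by myeloid cells, fell in the brain tumors, with 8.85, 6.65 and 8.90 RPKM against 517 and 83.9 RPKM in the lung tumors (log2 fold change -4.53, SE 0.76, limma adjusted p = 0.0113). The call was lost without any 1 of the brain tumors (limma adjusted p from 0.0515 to 0.0653). Cfd, the protease factor D, had 0.390, 0.216 and 0.123 RPKM in the brain and 22.8 and 9.62 RPKM in the lung tumors (log2 fold change -3.68, SE 0.49, limma adjusted p = 0.00549). Each brain value of Cfd was 1 read, and the lung values were 5 and 48 reads. Markers of adipocytes, a main source of factor D, summed to 22.9 to 29.9 RPKM in the brain tumors, against 397 and 102 RPKM in lung tumors 1 and 2. There 3 and 0 of the 7 were at 0. Fabp4, also 1 of the alveolar macrophage markers, and Lpl gave 225 and 164 of the 397 RPKM. Adipoq and Plin1 had 1 read each in lung tumor 1. In lung tumor 2 Lpl gave 81.3 of the 102 RPKM. The part of adipocytes was not tested. Masp1, a lectin pathway protease, had 4.06, 3.62 and 2.92 RPKM in the brain tumors, 0 in lung tumor 1 and 0.470 RPKM in lung tumor 2 (log2 fold change 1.89, SE 0.40, limma adjusted p = 0.0241). A count of 0 in lung tumor 1 allows up to 4.61 RPKM of Masp1, above all 3 brain values, and the call was lost without any 1 of the brain tumors (limma adjusted p from 0.0708 to 0.0941). Masp2, the protease that starts the lectin route, was at 1.82, 2.42 and 1.84 RPKM against 8.54 and 5.24 RPKM and was not called (log2 fold change -1.36, SE 0.42, limma adjusted p = 0.0666). Its value in lung tumor 1 was 2 reads, under the 12.8 RPKM that a count of 0 allows there.

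The C1q chains, which form the sensor of the classical route, did not differ between the groups beyond their spread. C1qa was at 504, 511 and 151 RPKM in the brain tumors, against 2890 and 236 RPKM in lung tumors 1 and 2. C1qb was at 319, 334 and 97.7 RPKM against 1821 and 177 RPKM. C1qc was at 369, 358 and 114 RPKM against 1902.5 and 178 RPKM. Brain tumors 1 and 2 thus lay between the lung tumors, brain tumor 3 lay below both, and lung tumor 1 stood far above all others. The log2 fold changes were -1.28 for C1qa (SE 1.14), -1.38 for C1qb (SE 1.07) and -1.24 for C1qc (SE 1.08), with limma adjusted p from 0.388 to 0.445. They turned to 0.52, 0.30 and 0.47 without lung tumor 1, and became calls of -3.09, -3.05 and -2.94 without lung tumor 2 (limma adjusted p from 0.0275 to 0.0280). The chains kept close proportions in every library, with C1qa at 1.33 to 1.59 times C1qb and at 1.32 to 1.52 times C1qc.

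Markers of the macrophages and microglia known to make C1q were read beside it. The summed level of the 10 macrophage markers was 139 to 701 RPKM in the brain tumors, 4171 RPKM in lung tumor 1 and 4576 RPKM in lung tumor 2, with 0 of them at 0 in any library. Of these markers 4 fell in the brain tumors. Lyz2, which lung alveolar epithelium also expresses, gave 4216 of the 4576 RPKM in lung tumor 2. Over the other 9 markers, a subset taken after the values were seen, the sum was 331, 300 and 104 RPKM in the brain tumors, against 1394 and 361 RPKM in lung tumors 1 and 2. As for C1q, lung tumor 1 was the highest and brain tumor 3 the lowest. The summed C1q level was 3.60, 4.01 and 3.49 times this sum in the brain tumors, 4.74 times in lung tumor 1 and 1.64 times in lung tumor 2. Against Csf1r alone, the growth factor receptor of microglia and macrophages and the 1 marker of the 10 with a log2 fold change above 0, it was 9.18, 9.23 and 7.24 times in the brain tumors, 74.7 times in lung tumor 1 and 10.2 times in lung tumor 2. The place of lung tumor 1 thus depended on the marker. Marco, a scavenger receptor of resident macrophages, was at 3210 RPKM in lung tumor 1, 29.2 RPKM in lung tumor 2 and at most 2.20 RPKM in the brain tumors. Of the other alveolar macrophage markers Fabp4 was also higher in lung tumor 1 than in lung tumor 2. Chil3, Car4, Atp6v0d2, Siglecf, Krt79 and Ear2 went the other way. Microglia markers summed to 152 to 509 RPKM in the brain and to 405 and 225 RPKM in the lung tumors, where 3 and 1 of the 10 were at 0. The part of these cells in the C1q levels was not tested.

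Of the anaphylatoxin receptors, which sit on myeloid cells, C5ar1 was called and C3ar1 was not, and the difference between them was not tested. C5ar1, the receptor of C5a, was at 5.96, 5.05 and 0.274 RPKM in the brain tumors, against 105 and 20.6 RPKM in lung tumors 1 and 2. It fell in the brain tumors by the narrowest margin of the calls (log2 fold change -3.67, SE 1.01, limma adjusted p = 0.0497), and 11 of 16 alternative settings lost the call, among them leaving out lung tumor 1 (limma adjusted p = 0.144) or any 1 of the brain tumors (0.0969 to 0.128). C3ar1, the receptor of C3a, was at 12.2, 11.6 and 2.03 RPKM against 51.9 and 7.04 RPKM, so that the groups overlapped (log2 fold change -1.37, SE 1.02, limma adjusted p = 0.366). Without lung tumor 1 the log2 fold change was -2.52 for C5ar1 and -0.01 for C3ar1. The 8 neutrophil markers, of cells that carry C5ar1 and store properdin, summed to 11.4 to 33.6 RPKM in the brain tumors, against 553 and 419 RPKM in lung tumors 1 and 2. Of the 7 tested 4 fell, and 1 to 3 of the 8 were at 0 in each library but lung tumor 2. Their part in the C5ar1 and Cfp levels was not tested.

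Of the 4 membrane regulators Cd55 fell and the other 3 did not pass the test. Cd55, which speeds the decay of the C3 convertases, was at 4.07, 4.50 and 2.83 RPKM in the brain tumors, against 20.4 and 52.6 RPKM in lung tumors 1 and 2 (log2 fold change -2.84, SE 0.52, limma adjusted p = 0.0145). Its call was lost without any 1 of the brain tumors (limma adjusted p from 0.0649 to 0.0734), and its value in lung tumor 1 rested on 6 reads. Without lung tumor 1 the log2 fold changes of the remaining called genes were -3.50 for Cd55, -3.22 for C2, -3.23 for Cfp, -3.10 for Cfd and 1.62 for Masp1, all still called. Cd59a, which blocks the membrane pore, was at 20.9, 10.6 and 11.3 RPKM against 22.4 and 14.4 RPKM and overlapped. Cd46 in mice is expressed chiefly in testis, and it had 3.15 to 4.40 RPKM in the brain tumors, against 3.34 and 3.37 RPKM in lung tumors 1 and 2. Cfi, the protease that cuts C3b, and Cd59b, a duplicate of Cd59a whose reads may be uncertain, had at most 4.55 RPKM in any library and were at 0 in lung tumor 1.

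The terminal components C6 and C7, parts of the membrane pore, were near 0 in the brain tumors and high in lung tumor 2 alone. C7 had 0.266, 0.147 and 0.209 RPKM in the brain tumors, 0 in lung tumor 1 and 116 RPKM in lung tumor 2, where it rested on 1700 reads. The filter left it untested, and a count of 0 in lung tumor 1 allows up to 4.68 RPKM. C6 had 0.147, 0.0814 and 0.0926 RPKM in the brain tumors, against 1.72 and 36.9 RPKM in lung tumors 1 and 2 (log2 fold change -3.20, SE 1.07, limma adjusted p = 0.0830). The value of 1.72 RPKM was 1 read, under the 5.18 RPKM that a count of 0 allows there, and the filter had kept C6 for its lung values alone. C8g, which was tested, and C8a, C8b, C9, Cfb and C5ar2, which were not, had at most 1.98 RPKM in any library but for 6.55 RPKM of C9 in lung tumor 1, which was 1 read. C8g was at 0 in lung tumor 1, which allows up to 15.4 RPKM, above every brain value.

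Other host tissues moved with the fall of C3, C1s1, C1ra and Serping1. Fibroblasts, which are known to make C1r, C1s, C3 and C1 inhibitor, were followed by 8 markers whose summed level was 173 to 863 RPKM in the brain tumors, against 16609 and 9730 RPKM in lung tumors 1 and 2. All 8 lay below both lung tumors in every brain tumor, 4 fell, and 0 were at 0. Brain tumor 1 had the highest fibroblast sum of the 3, at 863 RPKM, and also the highest C3, C1s1, C1ra and Serping1 of the 3. The order did not hold throughout: lung tumor 1 had the higher fibroblast sum of the lung tumors but the lower C3 and C1ra, and brain tumor 2 had a higher sum than brain tumor 3 but less Serping1. The lung epithelium markers were 0.0626% in lung tumor 1 of their reads in lung tumor 2 (median), while C1s1, C3, C1ra and Serping1 stood at 4.92%, 1.71%, 2.83% and 5.59%. The mouse reads of lung tumor 1 as a whole were fewer, 231156 against 5295159. Hepatocyte markers, a check for liver RNA, summed to 9.76 to 113 RPKM in the brain tumors and to 637 and 9.92 RPKM in the lung tumors, with Alb at 522 RPKM in lung tumor 1. In lung tumor 2, 4 of the 8 were at 0. Ttr alone gave 108 of the 113 RPKM in brain tumor 3, where Alb was at 3.77 RPKM. The part of fibroblasts and of other host cells in these differences was not tested.

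The makeup of host complement RNA is given by library, with no test. All 30 members summed to 2095, 1989 and 863 RPKM in the brain tumors and to 10252 and 6257 RPKM in the lung tumors. In the brain tumors C1q chains gave 56.9%, 60.5% and 42.0% of that sum, and C4a with C4b gave 29.9%, 31.1% and 44.3%. C3 gave 4.10%, 2.30% and 2.48% there. In lung tumor 1 C1q gave 64.5%, C3 14.1% and C4 3.21%, whereas in lung tumor 2 C3 gave 59.4%, C1q 9.46% and C4 9.90%. C1q and C4 together thus made up most of the sum in every brain tumor, C1q in lung tumor 1 and C3 in lung tumor 2. The gene lengths used for RPKM are not stated in the files. Lengths implied by the recovered reads were 596 and 622 bases for human and mouse C3 and 1064 bases for C1qa, so that shares between genes depend on how lengths were defined.

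**Figure D2:**
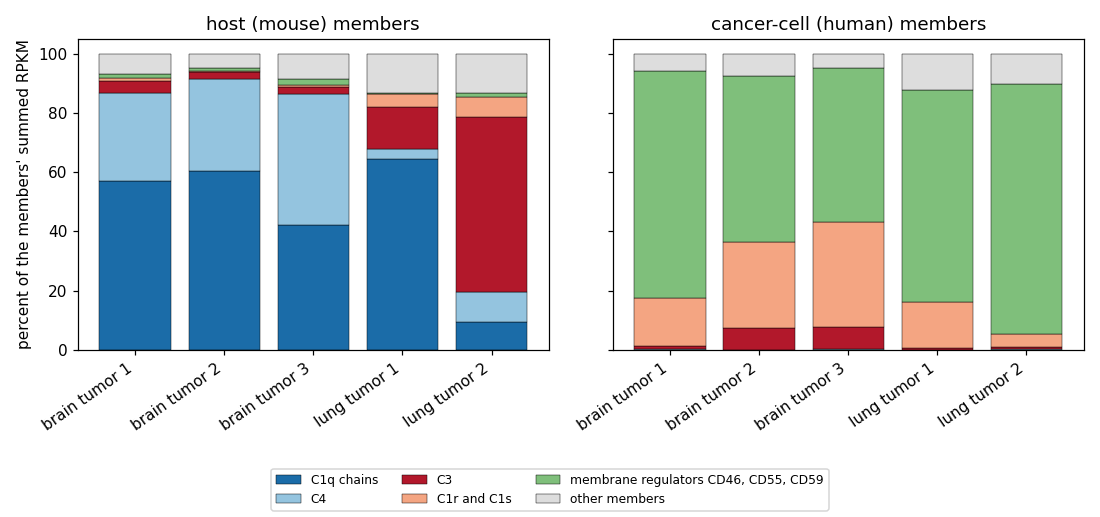
Stacked bars give the percent of the members' summed RPKM taken by each gene group in each library, for 30 mouse genes on the left and 19 human genes on the right. In the host, C1q and C4 fill most of the brain bars and C3 takes 59.4% of lung tumor 2, while the membrane regulators fill 51.8% to 84.6% of the cancer-cell bars.

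In the cancer cells no complement gene passed the test. Of 19 human members 10 passed the filter, and 0 of them were called by limma, where 0.00693% of all 14423 tested human genes, 1 gene, were. At an unadjusted p under 0.05 there were 5 members, C3 and C1S with higher values in the brain tumors and CFD, CD59 and C8G with lower ones, against 10.5% of all tested genes. In 3 members, the last 3 named, every brain tumor lay below both lung tumors, and in 0 did every brain tumor lie above, where these shares were 12.3% and 17.4% of all tested genes, 29.7% together. The median log2 fold change was 0.04 over the tested members and 0.09 over all tested genes. The other 9 members, among them CFP, C4A, SERPING1, C5AR2, MASP2, CFI, C7 and C3AR1, had at most 1.37 RPKM in any library. Markers of human blood and myeloid cells summed to 0.451 to 2.93 RPKM over the 5 libraries, and 0 of the 6 markers passed the filter.

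**Figure D3:**
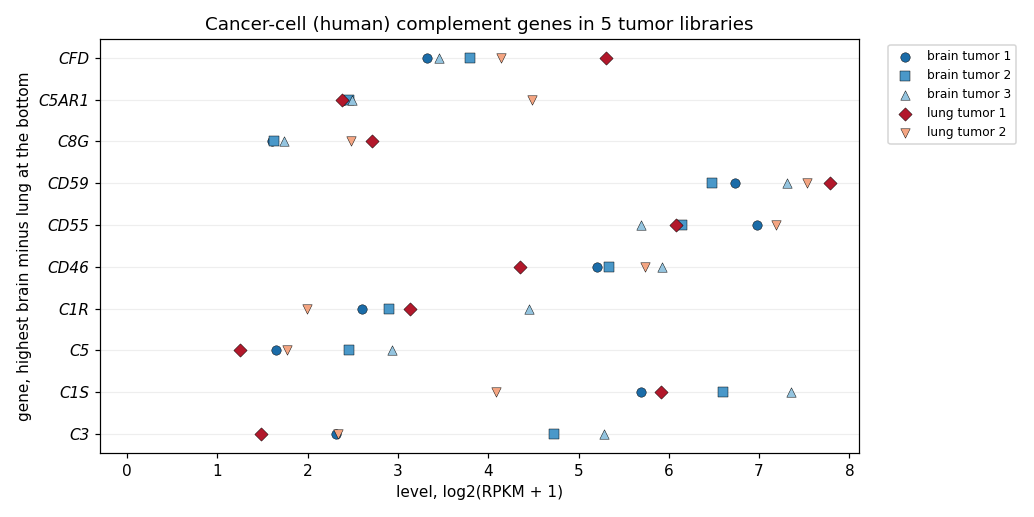
Each row is 1 of the 10 tested human complement genes and each point 1 library, with log2(RPKM + 1) on the horizontal axis and genes ordered by brain minus lung. The groups separate for CFD, C8G and CD59, with both lung points on the right, and overlap for the other 7 genes; 0 of the 10 passed the test.

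The membrane regulators, which hold complement in check on the body's own cells, had the highest summed level of the human members. Whether the human regulators act on mouse complement was not tested. CD55 and CD46 lie on chromosome 1, from 207321678 to 207360966 and from 207752038 to 207795516 in GRCh38, and CD59 on chromosome 11 from 33703010 to 33736479. CD59, the blocker of the membrane pore, was at 106, 88.4 and 157 RPKM in brain tumors 1, 2 and 3 and at 219 and 184 RPKM in lung tumors 1 and 2. Its groups did not overlap, and its log2 fold change was -0.82 (SE 0.35, limma adjusted p = 0.474). CD55, which breaks up the convertases, was at 125, 69.7 and 50.6 RPKM against 66.5 and 145 RPKM and overlapped (log2 fold change -0.37, SE 0.48, limma adjusted p = 0.778). CD46, the membrane cofactor for cleavage of C3b, was at 35.8, 39.4 and 59.6 RPKM against 19.4 and 52.4 RPKM and also overlapped (log2 fold change 0.44, SE 0.47, limma adjusted p = 0.722). CD59 and CD55 did not move in step: CD59 was 0.847, 1.27 and 3.11 times CD55 in the brain tumors, against 3.30 and 1.27 times in lung tumors 1 and 2. Summed, the 3 regulators made up 76.8%, 56.3% and 51.8% of the human members' RPKM in the brain tumors, against 71.6% and 84.6% in lung tumors 1 and 2. SERPING1, the soluble inhibitor of C1r and C1s, had 0.272 to 0.848 RPKM in the 5 libraries.

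C1S and C1R, neighbours on chromosome 12, from 7060718 to 7071032 and from 7080219 to 7092445 in GRCh38, were expressed by the cancer cells in all 5 libraries. C1S was at 50.9, 95.6 and 163 RPKM in the brain tumors, against 59.4 and 16.0 RPKM in lung tumors 1 and 2. C1R was at 5.09, 6.44 and 20.8 RPKM against 7.79 and 2.97 RPKM. Both were highest in brain tumor 3 and lowest in lung tumor 2, and both overlapped between the groups. The log2 fold changes were 1.55 for C1S (SE 0.63, limma adjusted p = 0.473) and 0.75 for C1R (SE 0.64, limma adjusted p = 0.645). In brain tumor 3, where only 22.1% of all reads were human, C1S had 272 human reads beside 20 mouse C1s1 reads.

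C3 of the cancer cells, unlike C3 of the host, was not called. It was at 3.99, 25.4 and 37.9 RPKM in the brain tumors, against 1.80 and 4.04 RPKM in lung tumors 1 and 2, on 20, 97, 55, 7 and 9 reads in that order. Brain tumors 2 and 3 lay above both lung tumors and brain tumor 1 just below lung tumor 2 (log2 fold change 2.20, SE 0.82, limma adjusted p = 0.470). C5, the next component, had 2.14, 4.51 and 6.67 RPKM against 1.39 and 2.41 RPKM (log2 fold change 0.84, SE 0.51, limma adjusted p = 0.545). In both genes brain tumor 3 was the highest library, as for C1S, C1R and CD46. The difference between the cancer cells and the host in C3 was not tested.

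CFD, factor D of the alternative route, lies on chromosome 19 from 859664 to 863641. It was at 8.98, 12.9 and 9.95 RPKM in the brain tumors, against 38.4 and 16.6 RPKM in lung tumors 1 and 2 (log2 fold change -1.20, SE 0.46, limma adjusted p = 0.470). Every brain tumor lay below both lung tumors, and without lung tumor 2 CFD became a call (log2 fold change -1.78, limma adjusted p = 0.0359). C8G, a terminal component, was at 2.03, 2.08 and 2.34 RPKM against 5.55 and 4.58 RPKM, on 3 to 19 reads (log2 fold change -0.94, SE 0.41, limma adjusted p = 0.475). C5AR1 was at 4.30, 4.48 and 4.61 RPKM in the brain tumors, at 4.21 RPKM in lung tumor 1 and at 21.3 RPKM in lung tumor 2. Its level was thus even in 4 libraries and high in 1, and its log2 fold change was -0.98 with all libraries and 0.07 without lung tumor 2.

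Set against each other within a library, cancer and host contributed different members. The human share of the reads of a gene pair was taken over the recovered human and mouse reads, with 95% exact Clopper-Pearson intervals that cover counting error only. CD46 reads were 98.7%, 97.6% and 90.4% human in the brain tumors, against 99.8% and 96.4% in lung tumors 1 and 2. CD55 reads were 98.5%, 93.3% and 77.5% human against 98.4% and 57.2%. At the other end, SERPING1 reads were 3.02%, 1.72% and 0.231% human in the brain tumors, against 1.39% and 0.0263% in lung tumors 1 and 2. C3AR1 had human reads in lung tumor 1 alone, taken there as 1 read because the count could not be recovered, which gave 1.85%. Reads of the CD46 and CD55 pairs thus came mostly from cancer cells and those of SERPING1 from the host. All reads of these tumors were 75.6%, 56.5% and 22.1% human in the brain and 96.6% and 41.4% human in the lung. The CD46 share depends on the pair chosen, since mouse Cd46 is expressed chiefly in testis. Cr1l, a mouse complement gene outside the pattern, had 98, 130 and 146 reads in the brain tumors and 17 and 396 reads in lung tumors 1 and 2.

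For the classical proteases the larger share came from cancer cells in 4 libraries and from the host in lung tumor 2. C1S reads, set beside mouse C1s1 (a pairing made after the values were seen, as for C1R with C1ra and CD59 with Cd59a and Cd59b), were 91.3%, 95.0% and 93.2% human in the brain tumors, 79.8% in lung tumor 1 and 2.92% (interval 2.11% to 3.95%) in lung tumor 2. C1R reads were 71.1%, 70.3% and 68.1% human in the brain tumors, 72.7% in lung tumor 1 and 1.62% in lung tumor 2. The human share of all reads was 75.6%, 56.5% and 22.1% in the brain tumors, against 96.6% and 41.4% in lung tumors 1 and 2. C1S lay above that share in every brain tumor and below it in both lung tumors. C1R lay above it in brain tumors 2 and 3 and below it in brain tumor 1 and both lung tumors. C3 reads were 12.1% (interval 7.56% to 18.1%), 40.9% (34.6% to 47.5%) and 32.4% (25.4% to 39.9%) human in the brain tumors, and 3.24% (1.31% to 6.56%) and 0.0736% (0.0336% to 0.140%) in the lung tumors. C3 reads were thus mostly mouse in all 5 libraries, and the 3 brain intervals lay above both lung intervals. CD59 reads were 87.0%, 83.0% and 63.7% human against 99.2% and 79.5%. How a read was assigned to a species is not stated in the labels used here. In lung tumor 2 there were 9 human C3 reads beside 12225 mouse ones.

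**Figure D4:**
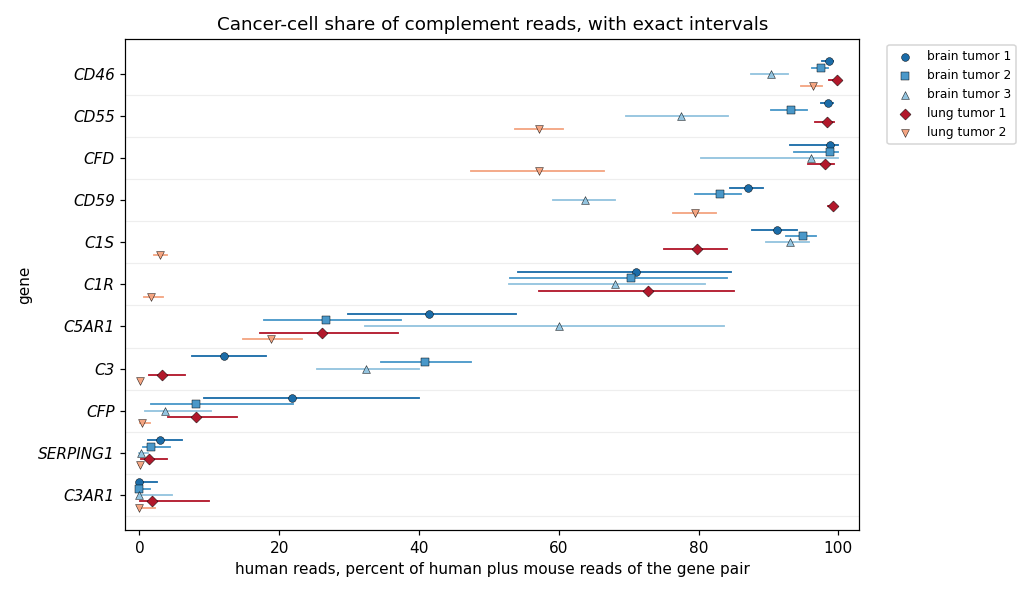
Each row is a gene pair and each point 1 library, with the human reads as a percent of human plus mouse reads on the horizontal axis and bars for 95% exact intervals. CD46 lies at 90.4% or more in all 5 libraries and SERPING1 at 3.02% or less. C1S falls from 79.8% or more in 4 libraries to 2.92% in lung tumor 2. All reads were 96.6% human in lung tumor 1 and 41.4% human in lung tumor 2.

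Complement genes outside the symbol pattern fell and rose in the host. Of 33 such mouse genes 23 were tested, and 9 fell and 6 rose in the brain tumors by limma, beside 8.12% and 14.3% of all tested genes. Of the 9, C1rb, C1rl, C1s2 and Vsig4 passed the filter through the lung tumors alone. Of the 6, Csmd1, Csmd2 and Csmd3 passed it through the brain tumors alone. The direction of these 7 calls was thus fixed by the filter. Hc, described below, reached 1 RPKM in brain tumor 2 alone of the brain tumors, and passed only with its lung values. In fits added after the data were seen, 9 fell and 6 rose without lung tumor 1, and 9 fell and 7 rose without lung tumor 2. Fcna, a ficolin of macrophages that starts the lectin route, was at 3.19 ± 2.52 RPKM over the brain tumors (mean ± SD, n = 3), against 873 ± 1138 RPKM over the lung tumors (n = 2). Its lung values were 1678 RPKM in lung tumor 1 and 68.6 RPKM in lung tumor 2 (log2 fold change -6.53, SE 1.34, limma adjusted p = 0.0215). Hc, the mouse gene for C5, had 0.958 ± 0.740 against 220 ± 293 RPKM, with 12.8 RPKM in lung tumor 1 and 427 RPKM in lung tumor 2 (log2 fold change -5.36, SE 1.39, limma adjusted p = 0.0428). The log2 fold change without lung tumor 1 was -4.24 for Fcna and -7.83 for Hc, and without lung tumor 2 it was -8.83 and -2.88, where the lung value of Hc rests on 2 reads. Vsig4, a macrophage receptor for C3b, had 0.477 ± 0.419 against 27.5 ± 25.8 RPKM (log2 fold change -3.93, limma adjusted p = 0.0157).

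The 6 genes that rose were Susd4, Csmd1, Csmd2, Csmd3, Clu and Vtn, and some of them are inhibitors of complement known from neural tissue. Susd4, a brain-expressed inhibitor of convertases, had 136 ± 14.9 RPKM in the brain tumors, against 0 and 17.4 RPKM in lung tumors 1 and 2 (log2 fold change 5.00, SE 1.15, limma adjusted p = 0.0304). Csmd1 and Csmd2, large neuronal proteins with complement control domains, passed the filter through the brain tumors alone, which fixed their direction, and are given as values. They had 16.4 ± 6.77 and 10.5 ± 4.48 RPKM over the brain tumors but at most 0.826 and 0.0557 RPKM in the lung tumors (log2 fold changes 3.62 and 3.40). Vtn had 96.8 ± 21.1 against 15.5 ± 12.6 RPKM (log2 fold change 2.80, SE 0.56, limma adjusted p = 0.0196). Clu encodes clusterin, a soluble inhibitor of the pore abundant in astrocytes. It had 2507 ± 490 against 716 ± 207 RPKM (log2 fold change 1.82, SE 0.42, limma adjusted p = 0.0307). Without lung tumor 1 the log2 fold change was 2.90 for Susd4, 3.67 for Vtn, 2.12 for Clu and -1.20 for Calr, described next. Susd4, Vtn and Clu rose beside the 8 neuron, 8 astrocyte and 8 oligodendrocyte markers, of which all 24 rose. Calr, the chaperone calreticulin that binds C1q, was the next most abundant gene and fell, with 367 ± 69.4 against 935 ± 144 RPKM (log2 fold change -1.35, limma adjusted p = 0.0384).

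In the cancer cells 8 of 18 such genes were tested and 0 were called by limma, with 0 at an unadjusted p under 0.05. CLU was at 1299 ± 514 RPKM over the brain tumors, against 1783 ± 1285 RPKM over the lung tumors, and CALR had 1139 ± 153 against 1121 ± 165 RPKM. Both were far above the 117 ± 35.8 and 202 ± 24.8 RPKM of CD59, which had the highest group means of the human genes of the symbol pattern.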

How the data were processed

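RNA of 3 brain and 2 lung tumors of H2030-BrM3 in athymic nu/nu mice was sequenced. The authors deposited RPKM, per the labels, in 1 human and 1 mouse table (hg38 and mm10, per the submitters' processing notes). The aligner, the counter, gene lengths and the rule of species assignment are not stated in the labels used here. Each column was tied to its sample through the number in its header, which the labels repeat. Whole reads were recovered from RPKM by finding 1 factor per library that leaves whole-number ratios within each gene, as all 21131 human and 20633 mouse genes above 0 in at least 2 libraries did (largest error 3.06e-10 reads). A divisor common to all libraries would go unseen. A gene above 0 in 1 library only was taken as 1 read there, since its count could not be recovered (4393 human and 3995 mouse genes).

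Genes with at least 1 RPKM in at least 2 libraries were fitted in each species on log2(RPKM + 1) with limma 3.58.1 in R 4.3.3, brain minus lung, eBayes with trend, 2-sided, with Benjamini-Hochberg adjustment over all tested genes and a threshold of 0.05. The script was tested on simulated data. Fold changes on this scale understate changes of low genes. Members with a mean of at least 5 RPKM in a group, or called, are given by library. Of other complement genes up to 6 called genes by largest log2 fold change and the 2 most abundant are named. Cr1l and Vtn were added after the values were seen. Members and lists were chosen with earlier results of these data known. Alternatives were pseudocounts, filters, scaling, eBayes options, a replicate block, the human read share as covariate, voom on recovered reads and leaving out each library. Human gene positions are from RefSeq (GRCh38). Sequences were not used here, and 1 gene of the pattern is not reported.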

Additional observations from a re-analysis of the deposited data

How the results depend on the processing

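Each species was refitted under 16 alternatives. Of the 10 called mouse members C3, C1s1, C1ra, Serping1 and Cfd kept their calls in all 16. The direction of Cfd was fixed by the filter, and C1ra passed the filter only with its lung values. C5ar1 lost its call in 11, Masp1 in 7 of 15, Cd55 in 4, Cfp in 3 and C2 in 1. Leaving out 1 library gave 5 to 16 called mouse members and 0 to 1 human members, and 1195 to 8275 called mouse and 0 to 1905 called human genes in all, with the highest of each count without lung tumor 2. A lung group of 1 library is assumed there to vary like the brain group. The main fits called 3457 mouse genes (63.8% higher) and 1 human gene. Without a filter 2295 mouse genes were called, and voom on recovered reads called 4233 (50.7% higher) and 0 human genes. With the share of human reads as covariate 0 human genes were called. The replicate block gave 1484 mouse genes (77.1% higher), 114 human genes, and 7 mouse and 0 human members. Nothing pairs the samples but their numbers, and deviations of same-numbered libraries correlated at -0.08 and 0.06 in human and 0.03 and 0.05 in mouse genes. The median of all mouse genes was 0.08, and 0.22 with median-ratio, -0.11 with quantile scaling and -0.15 with voom. That of all human genes was 0.09, and -0.03 with median-ratio scaling. Signs that turned were all of genes with no call in the main fit. Without lung tumor 1 these were C1qa (0.52), C1qb (0.30), C1qc (0.47), C4b (-0.22), C4a (-0.29), C8g (-0.14), Cfi (-0.69), Cd59b (-0.58) and human CD46 (-0.25), with values of -3.09, -3.05, -2.94, 0.66, 1.00, 1.22, 1.57, 1.42 and 1.13 for the same genes without lung tumor 2. Without lung tumor 2 human C5AR1 (0.067) and CD55 (0.19) turned, at -2.03 and -0.92 without lung tumor 1, and without brain tumor 1 Cd59b (-0.10) turned. With quantile scaling they were Cd46 (-0.24), C8g (-0.12), Cfi (-0.20) and Cd59b (-0.19), and with voom C4a (-0.16), C8g (-0.29), Cfi (-1.02) and Cd59b (-1.15). The cause was not tested. The median cancer share over gene pairs and libraries was 24.0% in reads and 31.9% per implied gene length. Depth limits lung tumor 1 most, where 12 tested mouse members had fewer than 10 reads.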
